A study of Homo sapiens with 7 samples.

Results

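The Notch genes described here are 10 genes chosen by name: the ligand genes DLL1, JAG1 and JAG2, the receptor genes NOTCH1, NOTCH2 and NOTCH3, the coactivator gene MAML2 and the target genes HES1, HEY1 and NRARP. Of these, 8 were among the 13872 genes listed with expression values, and NOTCH3 and JAG2 were not listed, so these 2 were not analysed here. RNA had been sequenced from 7 cultures of UM-UC-3, an established human line from a urothelial (bladder) carcinoma. The groups were 3 ALDH-high clones (clones 1, 6 and 10), which the submitters treat as cancer stem-like cells, 3 ALDH-low clones (clones 1, 3 and 8), treated as their non-stem-like counterparts, and 1 wild-type culture. The clones had been picked by an ALDEFLUOR sort, in which cells light up according to their aldehyde dehydrogenase (ALDH) activity. The stated medium for the ALDH-high clones was DMEM with 10% FBS. Clone 1 of one group and clone 1 of the other share only a number. Where 3 values are given for a group, they stand in the order of the clone numbers above. Each library is 1 clone of 1 cell line, so the spread within a group is a spread between clones, and the wild-type culture has no replicate.

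Notch signalling passes between touching cells. Ligands of the Delta-like and Jagged families on one cell bind Notch receptors on its neighbour, proteases then cut the receptor, and the freed intracellular part enters the nucleus. There it joins the DNA-binding protein RBPJ and a Mastermind-like coactivator, and together they switch on genes such as HES1, HEY1 and NRARP. HES and HEY proteins are transcriptional repressors, and NRARP dampens the same pathway that induces it. In urothelium and in bladder carcinoma, Notch signalling is known for opposing roles, since both growth-restraining and growth-promoting effects have been described.

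Values are CPM, read counts scaled to library size, and 1 read was worth about 0.04 CPM in every library. Reads recovered for the listed genes summed to 24177114 to 25664901 per library. The sum was above the library size in ALDH-high clone 1 (25664901 against 25165297) and in wild type (25232850 against 25021256). Of the listed genes, 1017 share all their values with another gene, so a read may be counted for more than 1 gene. ALDH1A1, a gene of the enzyme family behind the sort, was at 33.37 to 96.32 CPM in ALDH-high clones, 0 to 0.08 CPM in ALDH-low clones and 37.85 CPM in wild type, so the libraries went with their labels. Of 12 urothelial markers, 4 were listed (KRT8, KRT18, FOXA1 and PPARG), against 4 of 5 mesenchymal markers, and the defining uroplakin genes and CDH1 were not listed. None of 6 basal urothelial markers and none of 4 epithelial markers, CDH1 included, was listed, nor was any of 5 immune, 4 endothelial and 6 fibroblast markers. Of the 7 tested urothelial and mesenchymal markers, 1 passed in limma, against 1.34% of all tested genes. Groups lay apart downward in the ALDH-high clones for 2 of the 7, against 12.1% of all tested genes. ZEB2, a mesenchymal transcription factor gene, fell in the ALDH-high group, with 0.76, 0.41 and 0.16 CPM against 5.12, 5.93 and 8.16 (limma adjusted p = 0.00706), and CDH2 had its groups apart in the same direction (limma adjusted p = 0.128), while the groups overlapped for VIM, ZEB1, KRT8, KRT18 and PPARG. The summed mesenchymal markers were at 1073.01 to 1239.16 CPM in one group and 1128.87 to 1534.16 CPM in the other (ALDH-high first), and the summed urothelial markers at 498.24 to 737.16 and 240.06 to 513.72 CPM, so both ranges overlapped. The mesenchymal sum was mostly VIM (1026.8 to 1459.68 CPM in the clones) and the urothelial sum mostly KRT18 and KRT8. These sums therefore say little about the lower genes, ZEB2 and CDH2 among them. The part of ZEB2 and CDH2 in the Notch differences was not tested. A set of 3 libraries (clone 10 of the ALDH-high group, clones 1 and 8 of the ALDH-low group) had been scaled by a common size of 24999949 or 24999950 reads, while the remaining 4 had sizes of their own. A term for the shared size was fitted as an alternative, and the cause of this difference in size was not tested. Differences within these 2 sets of libraries are given beside the pooled ones, with wild type left out. In the shared-size set, ALDH-high clone 10 is set against ALDH-low clones 1 and 8. In the other set, ALDH-high clones 1 and 6 are set against ALDH-low clone 3. Each such difference thus rests on 1 clone on one side, so scatter between clones and an effect of size cannot be told apart.

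Between ALDH-high and ALDH-low clones, the Notch genes fell into a few patterns. HES1 and NRARP, 2 of the 3 target genes, and MAML2, the coactivator gene, were higher in every ALDH-high clone than in any ALDH-low clone. DLL1, a ligand gene, was lower in every ALDH-high clone than in any ALDH-low clone. The groups overlapped for the receptor genes NOTCH1 and NOTCH2, for the ligand gene JAG1 and for HEY1, the third target gene. No Notch gene passed the adjusted threshold of 0.05 in the test across all genes, which was limma on log2(CPM + 1).

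All 8 listed genes passed the filter on low values (3 or more clones at 1 CPM or above). Limma passed 0 of the 8 genes after Benjamini-Hochberg adjustment over 12705 tested genes, where it passed 1.34% of all genes. At an unadjusted p under 0.05 there were 4 of 8 (HES1, DLL1, NRARP and MAML2), against 19.7% of all tested genes. Groups lay apart upward for 3 of 8 genes, against 14.0% of all genes, and downward for 1 of 8, against 12.1%. The 8 genes were chosen with earlier results of these data known, so these shares cannot show that Notch genes differ more often than others. The choice of test mattered for these calls. On recovered reads, edgeR passed 0 of 8 (1.02% of all genes) and DESeq2 passed 3 of 8, HES1, NRARP and DLL1 (7.92% of all genes). Limma with library weights passed HES1 alone (5.51% of all genes), as did limma without ALDH-high clone 1 (0.905% of all genes). The median difference of the 8 genes was 0.17 log2 units, and that of all tested genes 0.0036. An exact permutation test of 1 gene with 3 clones against 3 cannot go below p = 0.1. In bulk RNA, fewer expressing cells and less RNA per cell cannot be told apart for any of these genes.

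**Figure D1:**
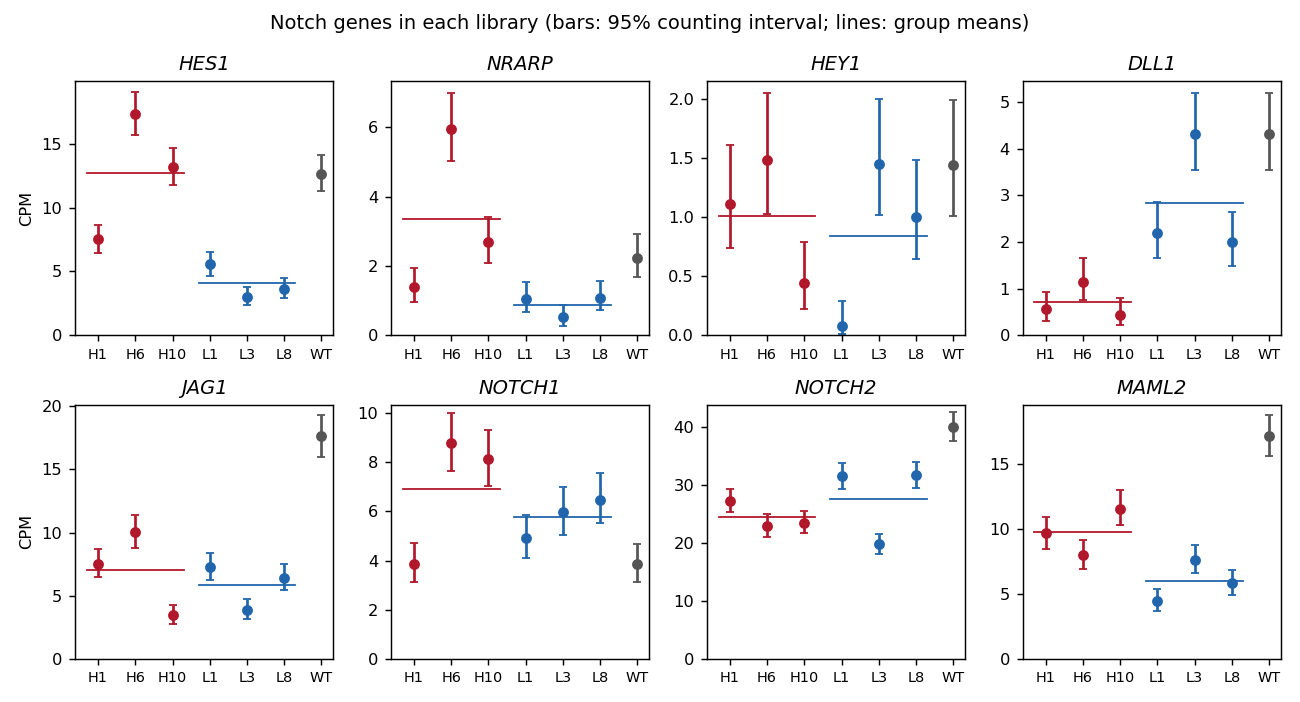
CPM of the 8 listed Notch genes in each library (H, ALDH-high clones 1, 6 and 10; L, ALDH-low clones 1, 3 and 8; WT, wild type), 1 panel per gene with its own axis from 0. Points are deposited values, bars are exact 95% counting intervals and lines are group means. The 3 red points lie above the 3 blue points for HES1, NRARP and MAML2 and below them for DLL1.

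Among the targets, HES1 (ENSG00000114315, chromosome 3, plus strand) encodes a repressor that is a primary readout of Notch activity in many tissues. The ALDH-high clones had 7.51, 17.36 and 13.2 CPM of HES1, the ALDH-low clones 5.56, 2.99 and 3.64, and wild type 12.67. Clones 6 and 10 stood well above all ALDH-low clones, while ALDH-high clone 1 lay nearest to them. Even there the counting intervals only just met, at 6.48 to 8.66 CPM for ALDH-high clone 1 and 4.67 to 6.56 CPM for ALDH-low clone 1. The means were 12.7 ± 4.95 and 4.06 ± 1.34 CPM (SD, n = 3 clones each), a ratio of 3.12. The difference was 1.40 log2 units (SE 0.326, 95% interval 0.65 to 2.15), with a limma adjusted p of 0.0824. HES1 passed with DESeq2 (adjusted p = 0.00244), with library weights in limma (adjusted p = 0.0216) and without ALDH-high clone 1 in limma (1.71 log2 units, adjusted p = 0.048), and not with edgeR (adjusted p = 0.0958). Over all alternatives, its adjusted p ran from 0.00244 to 0.23 and its difference from 0.94 to 1.71 log2 units. Within the libraries that share a scaling size the difference was 1.36 log2 units, and within the others 1.65.

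NRARP (ENSG00000198435, chromosome 9, minus strand) encodes a small ankyrin-repeat protein that binds the Notch nuclear complex and limits it. NRARP measured 1.39, 5.95 and 2.68 CPM in the ALDH-high group, 1.04, 0.51 and 1.08 in the ALDH-low group, and 2.24 in wild type. Clone 6 was the highest and clone 1 the lowest of the ALDH-high clones, the same order as for HES1. The lead of ALDH-high clone 1 over the ALDH-low clones was within counting error, since its 35 reads gave an interval of 0.969 to 1.93 CPM and the 27 reads of ALDH-low clone 8 one of 0.712 to 1.57. Means were 3.34 ± 2.35 and 0.877 ± 0.318 CPM (n = 3 each), a difference of 1.08 log2 units (SE 0.384, 95% interval 0.20 to 1.97, limma adjusted p = 0.179). Without ALDH-high clone 6 it was 0.68 log2 units. DESeq2 passed NRARP (adjusted p = 0.0408) and edgeR did not (adjusted p = 0.152), with a range of 0.0408 to 0.336 over the alternatives. The difference was 0.84 log2 units within the shared-size libraries and 1.43 within the others.

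Because HES1 and NRARP followed each other across the libraries, their promoters are shown, 250 bases before to 50 bases after the RefSeq gene start (GRCh38.p14), 5′ to 3′ on the strand of the gene. Capitals mark every match, on either strand, to the core TGGGAA that RBPJ binds and to the N-box CACNAG that HES proteins bind. The HES1 window is chr3:194135898-194136197 on the plus strand, and the NRARP window is chr9:137302222-137302521 on the minus strand.
HES1: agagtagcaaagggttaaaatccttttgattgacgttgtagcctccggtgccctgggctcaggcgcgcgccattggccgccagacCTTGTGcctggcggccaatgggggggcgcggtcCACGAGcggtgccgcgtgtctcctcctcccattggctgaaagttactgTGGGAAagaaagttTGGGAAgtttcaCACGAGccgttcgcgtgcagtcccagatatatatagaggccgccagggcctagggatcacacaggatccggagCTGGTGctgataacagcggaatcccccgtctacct
NRARP: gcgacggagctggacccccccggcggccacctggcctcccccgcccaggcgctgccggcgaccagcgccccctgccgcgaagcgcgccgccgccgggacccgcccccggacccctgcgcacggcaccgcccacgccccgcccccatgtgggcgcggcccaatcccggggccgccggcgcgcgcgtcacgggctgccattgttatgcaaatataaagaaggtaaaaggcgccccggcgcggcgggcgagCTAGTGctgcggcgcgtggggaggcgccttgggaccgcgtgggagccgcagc

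The HES1 window held TGGGAA at 2 places, starting 84 and 70 bases before the gene start, both on the strand of the gene. The first of them was also a match to the longer form GTGGGAA. Of all 35116 promoters in the table, 24.0% held TGGGAA on either strand, 3.80% held it at 2 or more places, and 6.25% held GTGGGAA. The HES1 window also held CACNAG at 4 places, against 8.94% of promoters with 2 or more and 38.0% with any. The NRARP window held 1 CACNAG match and no TGGGAA, which says only that these letters are absent from this window. No TGGGAA was found in the windows of MAML2, NOTCH1, NOTCH2, NOTCH3, JAG1 or JAG2. DLL1 and HEY1 were not searched, and these matches are letters in a sequence, not measured binding.

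HEY1 (ENSG00000164683, minus strand), the third target, encodes a repressor related to HES1 and showed no such pattern. HEY1 gave 1.11, 1.48 and 0.44 CPM among ALDH-high clones, 0.08, 1.45 and 1 among ALDH-low clones, and 1.44 in wild type. The groups overlapped, and the lowest value, in ALDH-low clone 1, was 2 reads. The difference was 0.17 log2 units (95% interval -0.66 to 0.995, limma adjusted p = 0.828). It was -0.18 log2 units without ALDH-low clone 1, and -0.03 and -0.10 within the shared-size and the other libraries. The other clones had 11 to 37 reads.

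Of the ligands, DLL1 (ENSG00000198719, chromosome 6, minus strand) encodes a Delta-like ligand that activates Notch receptors on neighbouring cells. Levels of DLL1 were 0.56, 1.15 and 0.44 CPM for the ALDH-high clones, 2.2, 4.32 and 2 for the ALDH-low clones, and 4.32 for wild type. All ALDH-high clones lay below all ALDH-low clones, and wild type matched the highest ALDH-low clone. The groups held 53 and 215 reads. Means were 0.717 ± 0.380 and 2.84 ± 1.29 CPM (n = 3 each), and the difference was -1.13 log2 units (SE 0.295, 95% interval -1.81 to -0.45, limma adjusted p = 0.102). DESeq2 passed DLL1 (adjusted p = 0.0164) and edgeR did not (adjusted p = 0.106), with a range of 0.0164 to 0.265 over the alternatives. The difference was -1.11 log2 units within the shared-size libraries and -1.54 within the others. In the GENCODE release 29 annotation the opposite strand at or close beside this locus carries FAM120B, at 28.69 to 32.47 CPM in ALDH-high and 27.56 to 36.38 CPM in ALDH-low clones. Whether and how far DLL1 and FAM120B overlap was not measured. No source used here says whether counting took strand into account, so their reads could not be told apart in any stretch they share.

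JAG1 (ENSG00000101384, chromosome 20, minus strand) encodes Jagged 1, the other ligand measured. JAG1 reached 7.51, 10.01 and 3.48 CPM among the ALDH-high and 7.24, 3.89 and 6.44 among the ALDH-low clones, with wild type at 17.63. Both groups spanned a similar range, and wild type stood above every clone. The difference was 0.16 log2 units (95% interval -0.68 to 0.999, limma adjusted p = 0.836). The sign of the JAG1 difference depended on the clones compared. It was -0.81 log2 units within the shared-size libraries, where ALDH-high clone 10 stands alone for its group. Within the others, where ALDH-low clone 3 stands alone, it was 0.99. Each of these clones was the lowest of its group for JAG1. The difference turned negative when ALDH-high clone 6 was left out (-0.12), or else ALDH-low clone 3 (-0.06). SLX4IP, on the opposite strand at or close beside the JAG1 locus, was at 12.56 to 16.05 CPM in ALDH-high and 7.6 to 14.73 CPM in ALDH-low clones.

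The receptors did not separate the groups. NOTCH1 (ENSG00000148400, chromosome 9, minus strand) encodes a receptor with broad roles in cell fate. Its level was 3.85, 8.78 and 8.12 CPM among ALDH-high clones, 4.92, 5.97 and 6.48 among ALDH-low clones, and 3.84 in wild type. ALDH-high clones 6 and 10 were the 2 highest libraries and ALDH-high clone 1 the lowest clone, so the ALDH-low clones lay between them. The difference was 0.16 log2 units (95% interval -0.52 to 0.85, limma adjusted p = 0.799), and -0.02 without ALDH-high clone 6. It was 0.46 log2 units within the shared-size libraries and -0.02 within the others. MIR4674, a microRNA gene at or close beside the NOTCH1 locus on the same strand, is listed with the same 7 values as NOTCH1. The source of these reads is thus uncertain between the 2 entries.

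NOTCH2 (ENSG00000134250, chromosome 1, minus strand) encodes the other receptor measured. Its level was 27.26, 22.98 and 23.52 CPM among ALDH-high clones, 31.6, 19.8 and 31.72 among ALDH-low clones, and 40.13 in wild type. ALDH-low clone 3 was the lowest library and the other ALDH-low clones were the highest clones. The difference was -0.14 log2 units (95% interval -0.63 to 0.36, limma adjusted p = 0.759). It was -0.36 without ALDH-low clone 3, and -0.03 with either clone 1 or clone 8 of the ALDH-low group left out. It was -0.41 log2 units within the shared-size libraries and 0.32 within the others. NOTCH2NL, a partial copy of NOTCH2 with near-identical sequence, is listed on its own at 41.33, 14 and 14.88 CPM (ALDH-high), 20, 17.28 and 18.72 CPM (ALDH-low) and 37.53 CPM (wild type). ALDH-high clone 1 and wild type were the high libraries for NOTCH2NL, and only wild type was for NOTCH2. No source used here says how reads were shared between such copies, so both values are uncertain.

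MAML2 (ENSG00000184384, chromosome 11, minus strand) encodes a Mastermind-like coactivator of the Notch nuclear complex. MAML2 stood at 9.66, 7.96 and 11.56 CPM among ALDH-high clones, at 4.44, 7.62 and 5.8 among ALDH-low clones, and at 17.15 in wild type. The groups lay apart by a small margin, since ALDH-high clone 6 and ALDH-low clone 3 had 194 reads each. Means were 9.73 ± 1.80 and 5.95 ± 1.60 CPM (n = 3 each), a difference of 0.64 log2 units (SE 0.241, 95% interval 0.08 to 1.19, limma adjusted p = 0.200). No alternative passed MAML2, with adjusted p from 0.0952 to 0.431. The difference was 1.05 log2 units within the shared-size libraries and 0.18 within the others. MAML1, its paralog, was at 23.1 ± 3.78 and 25.2 ± 2.85 CPM (limma adjusted p = 0.745).

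**Figure D2:**
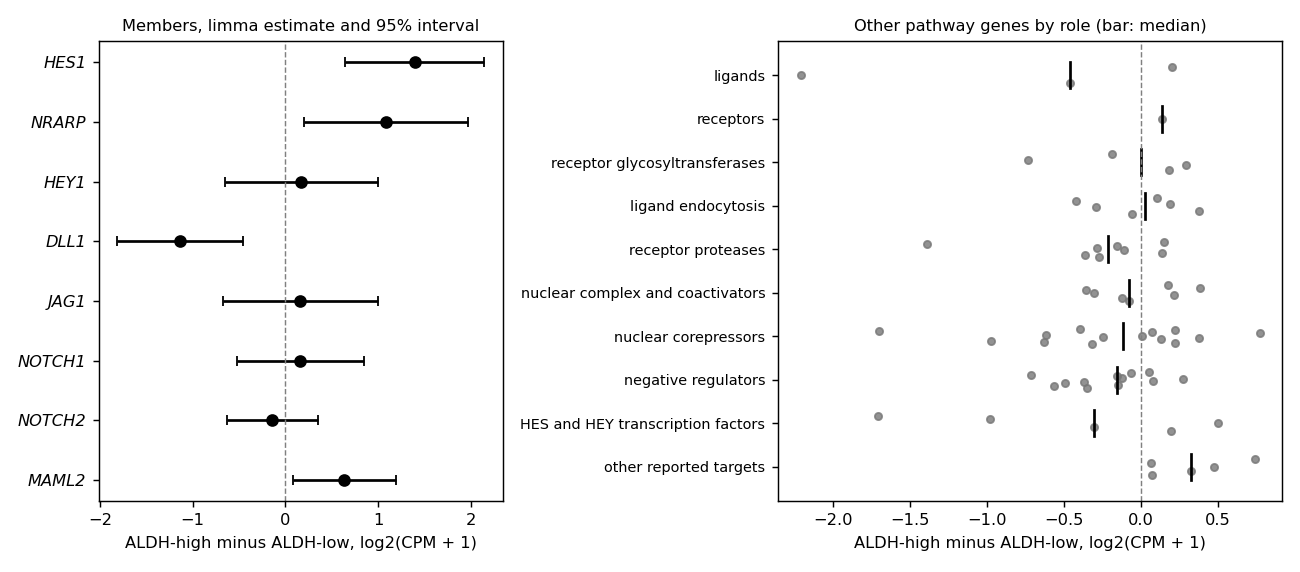
Difference between ALDH-high and ALDH-low clones in log2(CPM + 1). Left, the 8 Notch genes with limma estimates and 95% intervals; the intervals of HES1, NRARP, MAML2 and DLL1 do not reach 0, before any adjustment for multiple tests. Right, the 65 tested genes of the wider pathway, 1 point per gene by role, with a bar at each median.

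The Notch genes also varied between clones of one group. On log2(CPM + 1), the spread within groups was above the median of all tested genes (0.258) for 8 of 8 Notch genes, from 0.281 for NOTCH2 to 0.578 for NRARP. NOTCH2 and MAML2 were close to that median, at the 56.2 and 58.8 percentile of all tested genes, and NRARP was at the 91.3 percentile. Genes of like level were not compared, and NRARP, HEY1 and DLL1 had few reads, so counting error adds to their spread. Among the ALDH-high clones, clone 6 had the highest value for HES1, NRARP, NOTCH1, JAG1, HEY1 and DLL1. Clone 1 had the lowest for HES1, NRARP and NOTCH1, and clone 10 the lowest for JAG1, HEY1 and DLL1. Profiles centred on the mean of the 7 libraries were nearest to each other for HES1 and NRARP, with a mean absolute distance of 0.277 log2 units. Each was the nearest profile of the other, and DLL1 was the farthest from both (1.12 and 1.05 log2 units). The next closest pair was JAG1 and NOTCH2 at 0.408. These distances describe 7 libraries that share 1 cell line, and they carry no test.

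**Figure D3:**
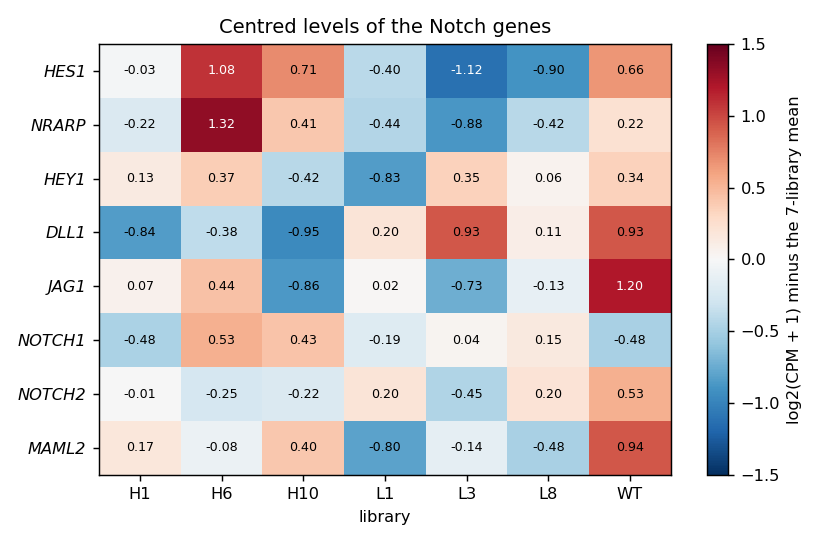
Level of each Notch gene in each library as log2(CPM + 1) minus its mean over the 7 libraries, with the value in each cell (H, ALDH-high; L, ALDH-low; WT, wild type; numbers name clones). HES1 and NRARP share high values in H6 and H10 and low values in L3, L8 and L1, and DLL1 is low in the H libraries and high in L3 and WT.

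Wild-type UM-UC-3, the control culture, had more JAG1, MAML2 and NOTCH2 RNA than any clone. JAG1 stood at 2.74 times the mean of the 6 clones, MAML2 at 2.19 times and NOTCH2 at 1.53 times. In each of the 3 genes the counting interval of wild type lay above that of the highest clone, as with JAG1 at 16.0 to 19.3 CPM in wild type and 8.80 to 11.4 CPM in ALDH-high clone 6. Wild type was below every clone for NOTCH1, by 0.01 CPM under ALDH-high clone 1, which is far within counting error. Thus 3 of 8 Notch genes were above all clones, against 22.6% of all tested genes, and 1 of 8 was below, against 25.4%. Under median-ratio scaling there were 5 above and 0 below, against 24.7% and 23.7% of all tested genes under that scaling. DLL1 and HEY1 were added and NOTCH1 was within the clones. Both additions were within counting error. Wild type had 108 reads of DLL1 against 110 in ALDH-low clone 3. It had 36 reads of HEY1, against 36 in ALDH-high clone 6 and 37 in ALDH-low clone 3. For HES1 and NRARP, wild type lay among the ALDH-high clones, and for DLL1 it was level with ALDH-low clone 3. With 1 wild-type library there is no test of these differences, and none of them can be assigned to cloning rather than to this culture.

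**Figure D4:**
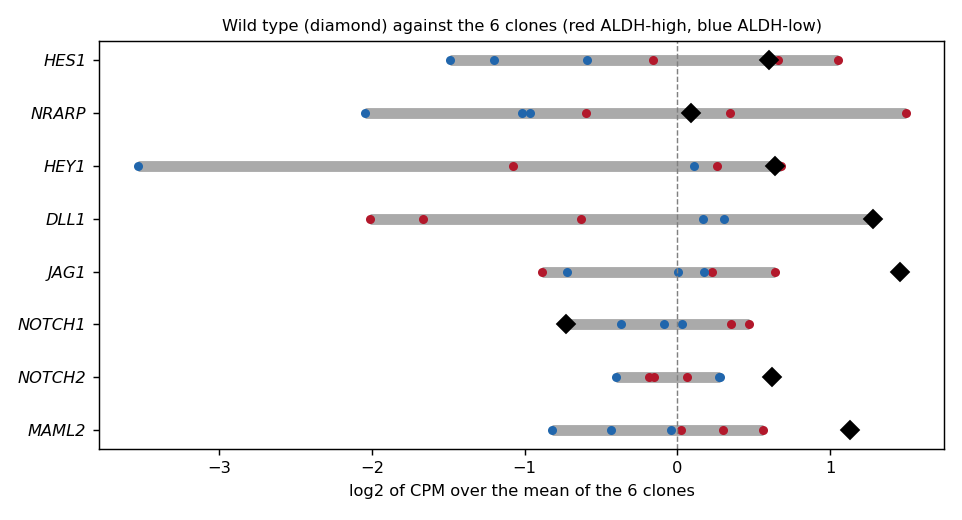
Wild type (black diamond) and the 6 clones (red, ALDH-high; blue, ALDH-low) for each Notch gene, as log2 of CPM over the mean of the 6 clones, with a grey bar from the lowest to the highest clone. The diamond lies right of the bar for JAG1, MAML2 and NOTCH2.

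The wider pathway was read from a list of 92 further genes in 10 roles, of which 69 were listed and 65 tested. Limma passed 0 of the 65 and edgeR 0 (1.34% and 1.02% of all genes). At an unadjusted p under 0.05 there were 13, or 20.0% of the list against 19.7% of all genes. DESeq2 passed 6, or 9.23% against 7.92% of all genes, so both shares were near those of all genes. Of these 6, DNER, APH1B, CIR1, NEDD4 and BHLHE41 were lower in ALDH-high clones and ID3 was higher. Groups lay apart upward for 6 of the 65 genes (9.23%, against 14.0% of all genes) and downward for 13 (20.0%, against 12.1%). The median difference was -0.11 log2 units.

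Other ligands and ligand handling came first on that list. DNER, a transmembrane protein reported as a Notch ligand, had 0.12, 0.7 and 1.32 CPM among ALDH-high and 10.64, 1.34 and 15.04 among ALDH-low clones (-2.21 log2 units, limma adjusted p = 0.135). ALDH-low clone 3 stood with the ALDH-high clones, and without it DNER passed in limma (1.36% of all genes passed there). DLK2, a Delta-like family member, was at 1.19 ± 0.709 and 1.91 ± 0.234 CPM (limma adjusted p = 0.414). EPN1, an endocytic adaptor that ligand-sending cells need, was at 89.0 ± 10.3 and 119 ± 11.2 CPM (limma adjusted p = 0.175). NEURL1B, a ubiquitin ligase of the Neuralized family, was at 1.38 ± 0.297 and 1.91 ± 0.0231 CPM (limma adjusted p = 0.474).

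The 8 genes for proteases that cut the receptors had a median difference of -0.21 log2 units, with 0 passing in limma (1.34% of all genes) and 3 apart downward (12.1% of all genes). APH1B, a gamma-secretase subunit gene, had 6.83, 3.37 and 3 CPM among ALDH-high and 10.4, 17.28 and 10.84 among ALDH-low clones (-1.39 log2 units, limma adjusted p = 0.0788). APH1B passed with DESeq2, and in limma with library weights or without ALDH-high clone 1. ADAM17, which encodes a surface protease able to cut Notch, had 35.56, 36.08 and 38.4 CPM against 50.76, 43.13 and 49.04 (limma adjusted p = 0.207). The glycosyltransferases that modify the receptors had a median of -0.0036 log2 units over 4 genes, with POGLUT1 at 24.2 ± 2.39 and 19.5 ± 1.11 CPM and POFUT1 at 48.1 ± 2.11 and 42.3 ± 3.36 CPM (limma adjusted p = 0.352 and 0.507).

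In the nucleus, RBPJ, the DNA-binding partner of Notch, was at 48.6 ± 2.32 and 51.9 ± 8.91 CPM with overlapping groups (-0.08 log2 units, limma adjusted p = 0.823). The acetyltransferase genes KAT2A, at 32.3 ± 4.96 and 24.6 ± 4.36 CPM, and EP300, at 18.4 ± 1.28 and 23.0 ± 1.57 CPM, did not pass (limma adjusted p = 0.321 and 0.332). Among 14 corepressor genes, CIR1, which encodes an RBPJ-interacting corepressor, was at 9.38, 10.84 and 10.84 CPM against 16.44, 29.03 and 20.12 CPM (-0.98 log2 units, limma adjusted p = 0.0842), and it passed with DESeq2 and with library weights in limma. TLE2, a Groucho-family corepressor gene through which HES proteins act, went the other way at 5.03 ± 2.27 and 2.41 ± 0.494 CPM (limma adjusted p = 0.202). Its relative TLE4 was lower in ALDH-high clones, at 0.08, 9.89 and 3.76 CPM against 11.76, 10.25 and 12.4 (-1.70 log2 units, limma adjusted p = 0.238). For TLE1 and TLE3 the groups overlapped (-0.62 and 0.07 log2 units, limma adjusted p = 0.488 and 0.863). Of the negative regulators, NEDD4, a ubiquitin ligase, was at 95.1 ± 2.36 and 135 ± 12.1 CPM and NUMBL, of the Numb family that restrains Notch, at 7.83 ± 1.02 and 12.1 ± 2.17 CPM (limma adjusted p = 0.107 and 0.186).

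Other HES and HEY family genes are given for comparison, and no difference between them and HES1 was tested. HES4 had 12.08, 29.06 and 26.44 CPM among ALDH-high and 28.08, 11.75 and 18.52 among ALDH-low clones (limma adjusted p = 0.821). Its groups overlapped. Among the promoter windows of these relatives, that of HES4 held GTGGGAA at 1 place and that of HEY2 at 2, and those of HES2, HES6 and HES7 held none. HES6 was at 1.92 ± 0.545 and 2.57 ± 0.312 CPM and HES7 at 20.8 ± 5.29 and 14.6 ± 4.38 CPM (limma adjusted p = 0.502 and 0.338). HES2 had 0 reads in ALDH-high clones against 46 in ALDH-low clones, at least 15.1-fold lower if the ALDH-high group as a whole is set to the floor of 3 reads, and was too low to be tested. HEY2 was at 7.15 CPM in ALDH-high clone 1 and at 0.08 to 0.29 CPM in the other 5 clones.

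BHLHE41, a related repressor gene, was at 0.690 ± 0.575 against 4.58 ± 2.24 CPM (-1.71 log2 units, limma adjusted p = 0.0654), and its relative BHLHE40 had 7.03, 5.13 and 3.8 against 19.04, 6.32 and 11.4 CPM (limma adjusted p = 0.203). The groups lay apart for BHLHE41 and overlapped for BHLHE40, and BHLHE41 passed with DESeq2 and with library weights in limma. ID3, an inhibitor of basic helix-loop-helix factors listed among other reported targets, had 1318.24, 1026.63 and 919.16 CPM among ALDH-high and 575.88, 700.69 and 662.56 among ALDH-low clones (0.74 log2 units, limma adjusted p = 0.0893). CDKN1A, a cell-cycle inhibitor gene, had 58.02, 132.4 and 123.68 CPM against 68.36, 72.24 and 71.08 CPM (limma adjusted p = 0.415). ALDH-high clone 1 again stood apart from clones 6 and 10, and without it CDKN1A passed in limma (0.905% of all genes passed there). Over all tested genes too, this clone had a mean absolute difference of 0.429 log2 units to its own group, against 0.343 to 0.381 for the other clones. To wild type it was 0.422 log2 units, against 0.581 to 0.64 for the other clones. These distances have no sign, and whether the place of ALDH-high clone 1 in the Notch genes goes with them was not tested.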

How the data were processed

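Total RNA from 7 UM-UC-3 cultures was sequenced. The authors deposited 1 table of CPM, and per the file headers its columns were prepared for CAGEr, an R package for 5′ tags of capped RNA; no source used here gives the assay type, the read assignment or the use of strand. The submitters' processing notes name BWA 0.5.9 and 2 genome builds (hg19, mm9), with no roles given. Columns sum to 967084.9 to 1019855.1 CPM, and every listed gene reaches 0.52 CPM in some library.

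Genes reaching 1 CPM in 3 or more clones entered a limma 3.58.1 model (R 4.3.3) of log2(CPM + 1), fitted to the 6 clones (variance trend, two-sided, Benjamini-Hochberg adjustment over all tested genes, threshold 0.05). Fold changes on this scale are understated for low genes. Values in each column are whole multiples of 1 read, so reads were recovered for edgeR 4.0.16 and DESeq2 1.42.0. All recovered reads matched within the rounding (0.0051 CPM), and 78.48 to 99.80% per column lay within 0.1 read of a whole number. The scripts were tested on simulated data. Counting intervals are exact Poisson at 95% and, like floors, cover counting error only. Alternatives were the pseudocount, filter, scaling, trend, library weights, wild type in the fit, 1 row per set of identical values, a term for the shared scaling size, the count tools and each clone left out.

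The genes and lists were chosen with earlier results of these data known. All listed Notch genes are named, and of the wider list those passing, the 2 with the smallest unadjusted p per role and the listed relatives of NOTCH2, HES1 and HEY1. RBPJ and MAML1 were added afterwards, for their role in the nuclear complex, and TLE1, TLE3 and TLE4 as relatives of TLE2. Chromosomes and genes at or close beside each locus were taken from GENCODE release 29 on GRCh38, which holds 96.6% of the listed identifiers. The extent of any overlap was not measured. Promoters are from RefSeq (GRCh38.p14), with entries for 8 of the 10 genes.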

Additional observations from a re-analysis of the deposited data

How the results depend on the processing

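The differences of HES1, NRARP and MAML2 stayed positive and that of DLL1 negative under every alternative that tested them (12 settings and 6 omitted clones; a filter at 5 CPM left 5 of the 8 Notch genes, without DLL1, NRARP and HEY1). The number of Notch genes passing was 0 except with library weights (1), with DESeq2 (3) and with clones omitted (0 to 1), and of the wider list 0 except with weights (3), DESeq2 (6) and omitted clones (0 to 2). The count over all genes was 170, with 86 at a filter of 5 CPM, 700 with weights, 73 with a term for the shared scaling size, 1004 with DESeq2 and 34 to 173 with a clone omitted (57 and 34 without ALDH-high clones 6 and 10, 44 and 37 without ALDH-low clones 1 and 8). The median Notch difference was 0.166, with 0.379 at a pseudocount of 0.1 and -0.0114 to 0.455 with a clone omitted. DLL1 was at -0.445 and NRARP at 0.47 with a pseudocount of 5, at -1.86 and 1.64 with 0.1, and at -2.01 and 1.89 with edgeR (-2.01 and 1.91 with DESeq2). Signs turned for JAG1 with weights (-0.104) and with ALDH-high clone 6 or ALDH-low clone 3 left out (-0.116 to 0.532 over omitted clones), for HEY1 with the size term (-0.0642) and over omitted clones (-0.175 to 0.416), and for NOTCH1 over omitted clones (-0.0231 to 0.483); causes were not tested. No paired analysis was possible because a clone number that occurs in both groups does not pair the clones that carry it. HEY1, NRARP and DLL1 had the fewest reads, 2 to 145 per clone, and the effect of depth on their calls was not tested.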
